A study of Mus musculus with 9 samples.

Results

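Of the 36410 genes listed in the count table, 110 had mRNA levels that stood higher with each mutant Hdh allele, from control cells (0 mutant alleles) over HD-het cells (1) to HD-homo cells (2). They include both collagen VI chains Col6a1 and Col6a2, the secreted matrix protein Aebp1, the growth factors Ereg and Fgf7, the cytokine Lif, 3 Wnt ligands and the interferon-induced Isg15, Xaf1 and Helz2. Further members are the necroptosis pair Ripk3 and Mlkl and 6 developmental transcription regulators. The genes were chosen by the values described here. Counts were divided by the total of their library and multiplied to counts per megaread (CPM), and 0.1 CPM was added to the mean of each line. A gene was taken where the HD-het mean was at least 2 times the control mean, the HD-homo mean at least 2 times the HD-het mean and at least 5 CPM. No library of a line was allowed to overlap with one of the adjacent line. Cgas, Mb21d1, Irf7, Aim2 and all symbols starting with Ifi, Oas or Gbp were set aside by name, which removed 8 genes that met the thresholds (Cgas and its older listing Mb21d1, Irf7, Ifi35, Ifi44, Ifih1, Ifit1 and Ifit3). Isg15, Xaf1 and Ripk3 met the rule with 0.1 CPM added and not with 1 CPM. Because the choice used all 9 libraries, the differences of the 110 genes between the lines are given as a description and carry no test.

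The libraries come from 3 immortalized striatal cell lines of mouse embryos, labelled as C57/BL6 in strain and striatal in cell type, with 3 replicate RNA-seq libraries each. The control line (STHdhQ7/Q7) holds a knock-in Htt exon 1 with 7 CAG-encoded glutamines in both Hdh copies. In the HD-het line (STHdhQ7/Q111) 1 copy has 7 and 1 has 111. In the HD-homo line (STHdhQ111/Q111) both have 111. All 3 lines thus carry the knock-in exon, and they share the immortalization by a temperature-sensitive large T antigen. Each genotype is 1 cell line, so that allele number and line cannot be told apart, and nothing states that the 3 libraries of a line came from separate cultures. P values therefore measure the spread between these libraries, which may be technical. In such bulk libraries fewer cells of a type and less RNA per cell cannot be told apart.

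Huntingtin with an expanded polyglutamine tract is the cause of Huntington disease, and these lines are widely used to ask how cells respond to 1 or 2 expanded alleles. Many of the genes described below act outside the cell. Collagens, laminins, fibrillins and fibulins build the extracellular matrix and the basement membrane. Wnt, fibroblast growth factor, epidermal growth factor and interleukin-6 family ligands act on surface receptors of neighboring cells. Interferon-stimulated genes are switched on by STAT and IRF factors that bind a short element in the promoter after a cell has sensed foreign or misplaced nucleic acid. Necroptosis is a form of cell death in which the kinase RIPK3 activates the membrane-disrupting protein MLKL.

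Library totals ran from 29507665 to 41197931 counted reads, so that the floor of 3 counts corresponded to 0.0728 to 0.102 CPM (this floor and all counting intervals cover counting error only). In control and HD-het cells replicate 3 was the odd library, and its counts differed from replicates 1 and 2 with a mean chi-square per gene of 11.6 to 22.3, against 2.28 and 6.49 between those 2. In HD-homo cells all pairs differed by 23.9 to 41.6. The transcript of the knock-in gene itself fell with each mutant allele. Htt was at 103, 103 and 93.3 CPM in control, 61.0, 64.0 and 60.1 CPM in HD-het, 19.8, 22.2 and 19.2 CPM in HD-homo libraries (n = 3 libraries per line), a log2 fold change of -0.68 (SE 0.0652, adjusted p = 4.4e-06) from control to HD-het cells and -1.62 (SE 0.0686, adjusted p = 3.8e-09) from HD-het to HD-homo cells by the quasi-likelihood test of edgeR, adjusted after Benjamini-Hochberg. Defining markers of adult striatal projection neurons were largely absent, since 15 of 20 such markers were below 1 CPM in all 9 libraries and Drd1, Pdyn and Slc32a1 were listed at 0. Of 16 general neuron markers, 9 were below 1 CPM throughout, among them Rbfox3, Snap25 and Syt1.

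Together the 110 genes took 0.0458% to 0.0513% of all counts in control, 0.183% to 0.194% in HD-het and 0.903% to 0.995% in HD-homo libraries. The 3 lines did not overlap in this share, as the rule requires of each gene. The first log2 step, from control to HD-het cells, had a median of 1.93 and a range from 1.00 (Eya4) to 8.25 (Aebp1). The second, from HD-het to HD-homo cells, had a median of 2.31 and a range from 1.05 (C1qtnf1) to 6.82 (Aspn). The median over all 13508 tested genes was 0.03 for the first and 0.00 for the second comparison. On the log2 scale the first step was the larger one for 48 of the genes and the second for 62. On the linear scale the second threshold of the rule keeps the share of the control to HD-homo difference that is present in HD-het cells below 50% for every gene of the set, so that nothing is read from its side of the midpoint. Within this limit the share had a median of 15.9% (range 0.602% for Aspn to 45.2% for Adh7). For 35 genes this share was under 10%, for 26 it was over 25% and for 4 over 40%.

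**Figure D1:**
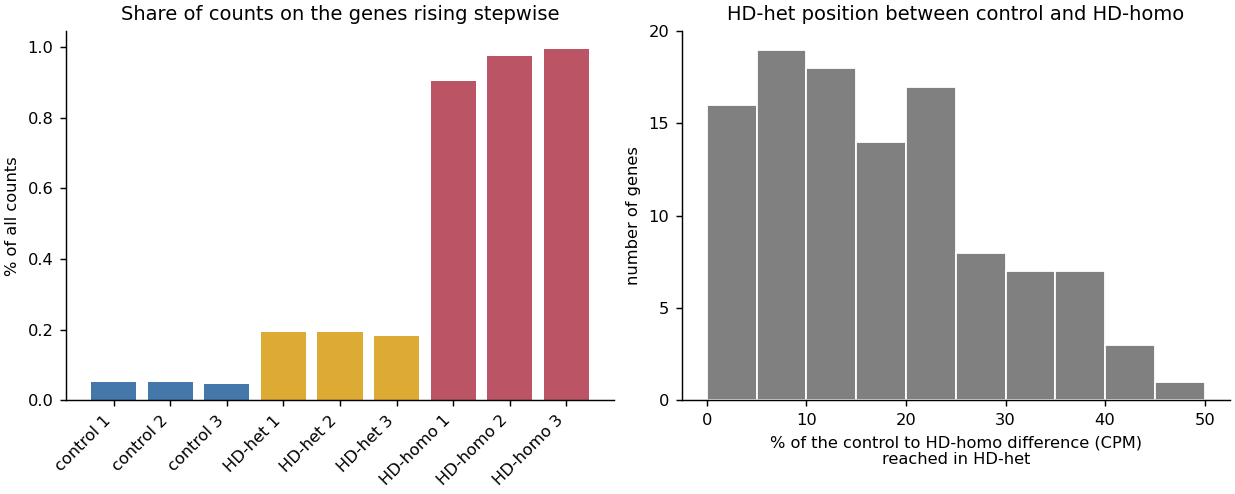
Left, bars of the percentage of all counts that fell on the 110 genes in each of the 9 libraries, colored by line; right, number of genes by the percentage of the control to HD-homo difference in CPM that was reached in HD-het cells. The HD-homo bars lie between 0.903% and 0.995%. In the histogram the rule itself keeps every gene below the midpoint, and 35 genes lie under 10%.

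The genes differed widely in where they started. The control mean was below 1 CPM for 66 of the 110 and at least 10 CPM for 13, and the HD-homo mean was at least 100 CPM for 19 and below 10 CPM for 25. All 110 passed edgeR's filter on low counts. In the fit over all tested genes 109 were called higher with 1 mutant allele than with 0 (adjusted p under 0.05), against 33.8% of the 13508 genes (and 31.4% called lower). Tap1 missed the threshold there, with an adjusted p of 0.051. All 110 were called higher with 2 mutant alleles than with 1, where 36.0% of all genes were called higher and 35.6% lower, and with 2 than with 0, where 29.6% were called higher and 28.9% lower. Nothing is read from these calls, because the rule used the same values. The mirrored rule for levels that stood lower with each allele was met by 60 genes.

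**Figure D2:**
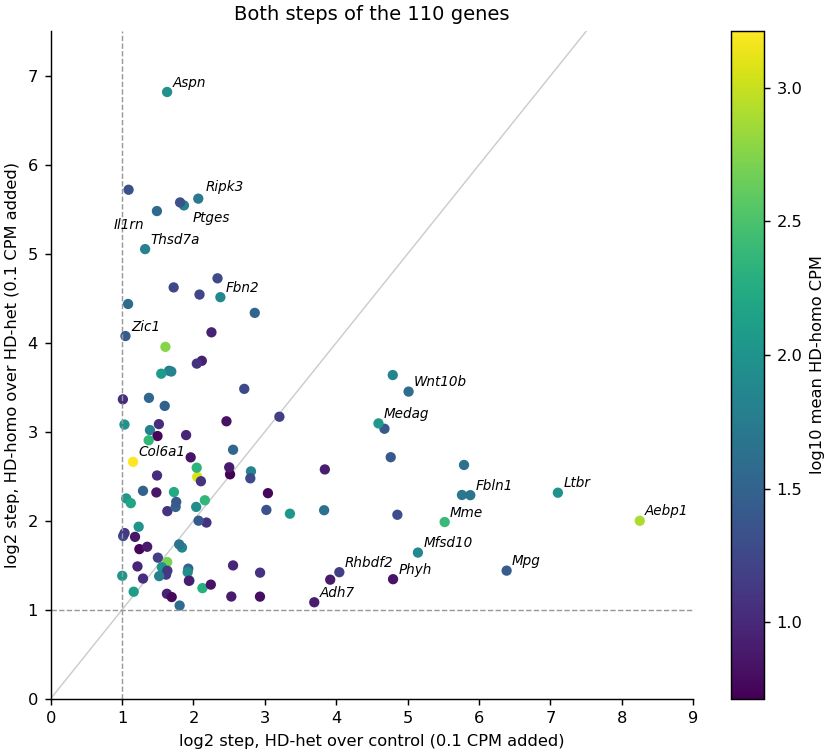
Each point is 1 of the 110 genes, placed by its log2 step from control to HD-het cells (x axis) and from HD-het to HD-homo cells (y axis), with 0.1 CPM added to the means and color for the log10 mean HD-homo CPM. Dashed lines mark the thresholds of the rule and the gray line equal steps; Aebp1 lies farthest to the right at 8.25 and Aspn highest at 6.82.

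At the edges of the rule, Eya4 and Isg15 were just inside the first step, with HD-het levels 2.004 and 2.02 times the control level, while Hic1 and Slc35d2 were just outside with 1.9997 and 1.98 times. For the second step C1qtnf1 (2.07 times) and Adh7 (2.12 times) were just inside and Tdrkh (1.96 times) and Bicc1 (1.96 times) just outside. The level condition was met most narrowly by Ccr1 at 5.17 CPM and Efr3b at 5.62 CPM, and missed most narrowly by Eepd1 at 4.90 CPM and Pde3a at 4.84 CPM. The condition on overlap removed 0 genes, and the narrowest gaps between adjacent lines were those of Spon2 and Adh7, at 1.15 and 1.21 times. In all, 69 further genes failed only the first step, 40 only the second and 45 only the level.

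The highest levels of the set in HD-homo cells belonged to genes of extracellular matrix proteins. Col6a1 and Col6a2, which encode chains of the microfibrillar collagen VI, lie side by side on chromosome 10 and were the leading pair of the set. Col6a1 was at 122, 121 and 104 CPM in control, 269, 260.1 and 243 CPM in HD-het and 1578, 1583 and 1727 CPM in HD-homo libraries, 14.1-fold above control in HD-homo cells. Col6a2 was at 54.8, 51.0 and 43.1 CPM in control, 212, 205 and 203 CPM in HD-het and 1115, 1114 and 1255 CPM in HD-homo libraries, 23.4-fold higher. In both genes the libraries of each line lay close together and far from the next line, and the second step exceeded the first. Aebp1, a secreted matrix protein with a carboxypeptidase-like domain, had the largest first step of all: 0.713, 0.565 and 0.339 CPM in control, 186, 175 and 222 CPM in HD-het and 760.3, 671 and 903 CPM in HD-homo libraries, 361-fold above control in HD-het and 1444-fold in HD-homo cells. Per kilobase of the longest annotated transcript, Col6a1 (397 CPM per kb), Col6a2 (236) and Aebp1 (203) were also the 3 highest of the set in HD-homo cells.

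**Figure D3:**
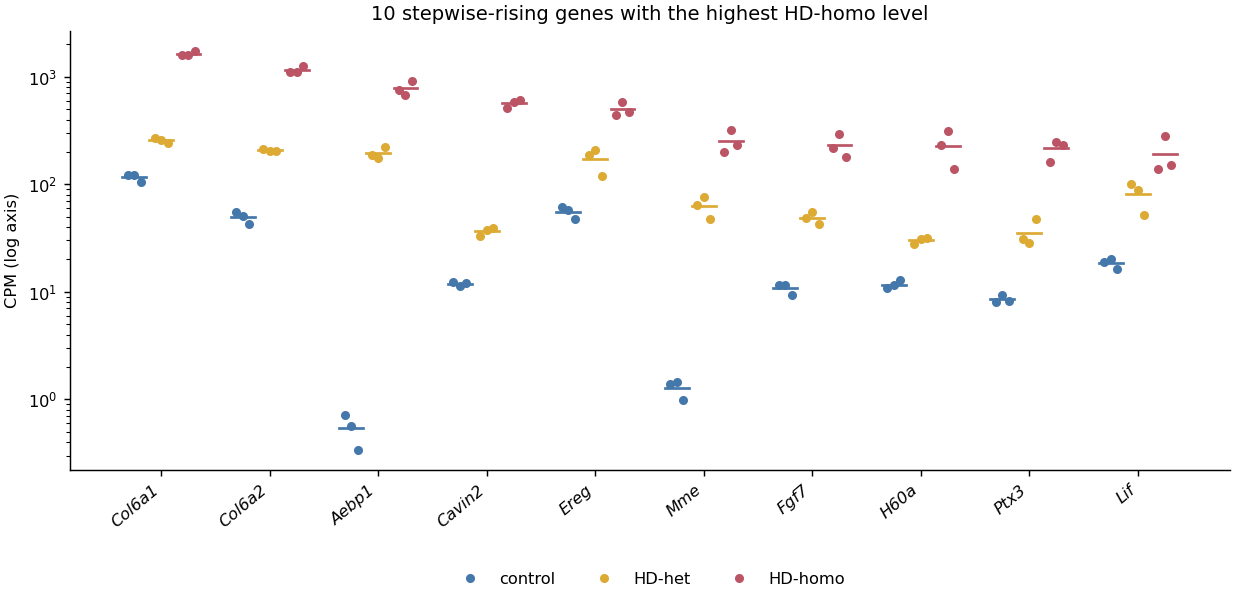
CPM (log axis) in each library of the 10 genes with the highest mean level in HD-homo cells; points are the 3 libraries of a line and short bars their means. For every gene the blue control points, yellow HD-het points and red HD-homo points form separate groups, from below 1 CPM for Aebp1 in control cells to the HD-homo points of Col6a1 near the top of the axis.

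Further matrix genes began near the detection limit. Fbln1 (fibulin) was at 0.124, 0 and 0.0678 CPM in control, 8.98, 8.81 and 10.8 CPM in HD-het and 48.6, 47.1 and 44.996 CPM in HD-homo libraries, and by summed counts it was 746-fold (95% counting interval 342 to 2034) above control in HD-homo cells. Lama4, a laminin chain of basement membranes, was at 0.0310, 0 and 0.0678 CPM in control, 5.67, 5.21 and 10.9 CPM in HD-het and 34.6, 32.4 and 68.9 CPM in HD-homo libraries, a ratio of HD-homo to control of 1415-fold (95% counting interval 484 to 6863). In both HD lines the third library of Lama4 lay far above its replicates. Fbn2, which encodes a fibrillin of elastic microfibrils, was at 0.527, 0.536 and 0.542 CPM in control, 2.95, 3.20 and 3.45 CPM in HD-het and 70.5, 105 and 49.9 CPM in HD-homo libraries, with the larger step in HD-homo cells.

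Aspn and Omd, neighbors on chromosome 13 that both encode small leucine-rich proteoglycans, had different profiles. Aspn was at 0.279, 0.179 and 0.0339 CPM in control, 0.862, 0.670 and 0.619 CPM in HD-het and 72.9, 133 and 70.2 CPM in HD-homo libraries, so that nearly all of its difference lay between HD-het and HD-homo cells (128-fold). Omd was at 1.95, 1.58 and 1.19 CPM in control, 5.75, 6.70 and 2.62 CPM in HD-het and 12.5, 17.2 and 10.4 CPM in HD-homo libraries, with steps of similar size (1.62 and 1.39 on the log2 scale). Other matrix and adhesion genes of the set were Tgfbi, a matrix protein induced by TGF-beta (37.9-fold above control in HD-homo cells), the microfibril genes Mfap5 (20.9-fold) and Ltbp2 (46.2-fold), Spon2 (22.6-fold), Sned1 (43.8-fold), Thsd7a (95.01-fold) and the gelatinase Mmp2 (10.04-fold). By summed counts the collagen-binding integrin subunit Itga2 was 222-fold (95% counting interval 108 to 554) higher and the lubricating proteoglycan Prg4 39.5-fold (95% counting interval 25.9 to 63.3) higher. Prg4 depended on HD-homo replicate 3, without which its ratio of HD-homo to HD-het was 5.44 in place of 8.41.

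In the rest of the matrix list most calls were higher in HD-het cells and most were lower in the step to HD-homo cells. Of 80 listed genes of extracellular matrix and basement membrane, 70 were tested and 6 belonged to the set (Col6a1, Col6a2, Lama4, Fbln1, Fbn2 and Omd). Among the other 64, 41 were higher and 13 lower in HD-het against control cells (edgeR, adjusted p under 0.05), whereas 21 were higher and 39 lower in HD-homo against HD-het cells. Their median log2 fold changes were 1.14 and -0.72, beside 0.03 and 0.00 over all tested genes. Against control cells 35 were higher and 21 lower in HD-homo cells. The most increased was Bgn, the proteoglycan biglycan, at 6.07, 5.92 and 4.17 CPM in control, 1295, 1264 and 1356 CPM in HD-het and 1049, 776 and 896 CPM in HD-homo libraries (log2 fold change 7.37, SE 0.166, adjusted p = 2.7e-11 for HD-homo against control). Its HD-homo libraries all lay below its HD-het libraries. The most decreased was Igfbp5, an IGF-binding protein, which went from 24.2 CPM in control and 33.0 CPM in HD-het cells to 0.110 CPM in HD-homo cells (adjusted p = 1.1e-06). Markers of fibroblasts and meningeal cells, none of which is in the set, summed to 4122 to 4743 CPM in control, 8185 to 9484 CPM in HD-het and 7724 to 8059 CPM in HD-homo libraries, and markers of mural and smooth muscle cells to 2406 to 2802, 7108 to 7807 and 234 to 331 CPM. Their part in the matrix result was not tested.

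**Figure D4:**
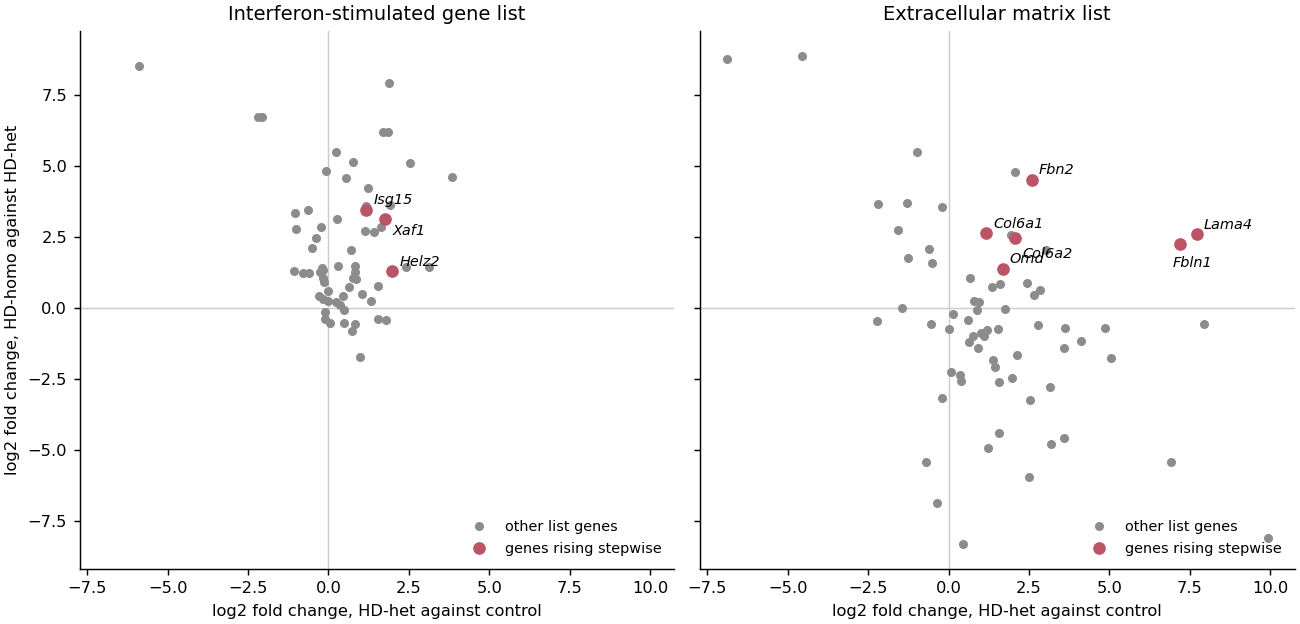
Log2 fold changes by edgeR of HD-het against control (x axis) and HD-homo against HD-het (y axis) for the tested genes of the interferon-stimulated (left) and extracellular matrix (right) lists; red points are genes of the stepwise set and gray points the other list genes. Most gray points of the left panel lie above 0 on the y axis (48 of 62 past the threshold), and most of the right panel lie to the right of 0 and below it.

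Secreted growth factors and cytokines formed a second group. Ereg (epiregulin), a ligand of the EGF receptor family, was at 60.8, 57.8 and 47.1 CPM in control, 186, 209 and 119.8 CPM in HD-het and 439, 581 and 472 CPM in HD-homo libraries, 9.01-fold above control in HD-homo cells. Fgf7, the keratinocyte growth factor, was at 11.6, 11.6 and 9.25 CPM in control, 49.0, 54.8 and 42.6 CPM in HD-het and 216, 293 and 179 CPM in HD-homo libraries, or 21.1-fold higher. Lif, a cytokine of the interleukin-6 family, was at 18.8, 20.1 and 16.3 CPM in control, 101, 88.2 and 52.3 CPM in HD-het and 139, 283 and 150.0 CPM in HD-homo libraries. In HD-het cells the third library of Ereg and of Lif was the lowest, and the second HD-homo library of Lif lay well above the other HD-homo libraries. Of 94 listed receptor tyrosine kinases and their ligands, 75 others were tested besides Ereg and Fgf7. Of these 29 were higher and 19 lower in HD-het against control cells and 20 higher and 37 lower in HD-homo against HD-het cells. In HD-homo against control cells 24 were higher and 35 lower. The median log2 fold changes were 0.06, -0.48 and -0.15. Over all tested genes the shares called higher and lower were 33.8% and 31.4%, 36.0% and 35.6%, and 29.6% and 28.9% in these comparisons. The neurotrophin receptor Ntrk3 had the largest positive change (0.0103 CPM in control, 0.361 in HD-het and 3.53 in HD-homo cells, adjusted p = 4.3e-08). It met both steps and stayed below the level of 5 CPM. The ligand Pdgfd had the largest negative change (3.53, 4.65 and 0.0184 CPM, adjusted p = 1.1e-08).

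Il1rn, the natural antagonist of the interleukin-1 receptor, was at 0.155, 0.179 and 0.237 CPM in control, 0.611, 0.853 and 0.678 CPM in HD-het and 28.9, 30.9 and 48.9 CPM in HD-homo libraries, 190.4-fold above control in HD-homo cells, with 1.45% of the difference present in HD-het cells. Of 48 listed chemokines and cytokines 27 others were tested, of which 7 were higher and 9 lower in HD-het against control cells, 17 higher and 6 lower in HD-homo against HD-het cells, and 17 higher and 5 lower in HD-homo against control cells. The last count was 2 without control replicate 2. It was 3 without control replicate 1 or 3, HD-het replicate 1 or 2 or HD-homo replicate 1. With the DESeq2 test or no filter it was also 3. All tested genes were called higher and lower in shares of 33.8% and 31.4%, 36.0% and 35.6%, and 29.6% and 28.9% in these comparisons. Ccl5, a T cell chemokine, was high in the HD-homo libraries alone, at 0.0620, 0 and 0.0339 CPM in control, 0, 0.0305 and 0 CPM in HD-het and 50.3, 57.9 and 55.6 CPM in HD-homo libraries (adjusted p = 2.5e-11 for HD-homo against control). Cxcl14 changed most in the other direction, from 9.87 CPM in control and 22.95 CPM in HD-het to 0.0386 CPM in HD-homo cells (adjusted p = 9.8e-10).

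The 3 Wnt ligands of the set started from different levels. Wnt10b was all but absent from control cells: 0, 0.0298 and 0 CPM in control, 3.70, 3.26 and 3.39 CPM in HD-het and 36.5, 49.5 and 30.2 CPM in HD-homo libraries, which is 1 control read in all and a HD-homo to HD-het ratio of 11.2-fold. Wnt11 was at 1.80, 1.73 and 1.02 CPM in control, 5.92, 5.00 and 5.16 CPM in HD-het and 25.2, 21.1 and 29.2 CPM in HD-homo libraries. Wnt2 was at 0.620, 0.655 and 0.169 CPM in control, 3.36, 3.90 and 2.68 CPM in HD-het and 8.02, 8.40 and 12.2 CPM in HD-homo libraries. Wnt10b and Wnt2 act mainly through beta-catenin, while Wnt11 acts mainly through other routes. Lgr6, a receptor for R-spondins that strengthens Wnt signaling, was at 5.73, 6.37 and 5.795 CPM in control, 17.8, 19.05 and 28.0 CPM in HD-het and 83.2, 36.9 and 91.1 CPM in HD-homo libraries, with the second HD-homo library far below the others.

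Genes on the TGF-beta side were Tgfbr3, a co-receptor that presents TGF-beta, Lrrc32, which docks latent TGF-beta on the cell surface, and Fstl3, a secreted inhibitor of activins. Tgfbr3 was at 4.74, 4.55 and 6.54 CPM in control, 11.3, 10.6 and 10.8 CPM in HD-het and 77.1, 98.7 and 103 CPM in HD-homo libraries. Lrrc32 was at 0.155, 0.0893 and 0.0678 CPM in control, 5.86, 5.15 and 5.63 CPM in HD-het and 65.2, 40.6 and 105 CPM in HD-homo libraries. Fstl3 was at 0, 0.119 and 0.237 CPM in control, 0.667, 0.609 and 0.589 CPM in HD-het and 20.0, 18.2 and 14.8 CPM in HD-homo libraries. The first step of Tgfbr3 was small (1.03 on the log2 scale) and that of Lrrc32 large (4.79). Of 87 listed TGF-beta, BMP and Wnt genes 6 were in the set, and among the 65 others tested 34 were higher and 14 lower in HD-het against control cells, with 17 higher and 35 lower in HD-homo against HD-het cells and 26 higher and 27 lower in HD-homo against control cells. At the extremes against control cells were the Wnt agonist Rspo3 (0, 0.400 and 0.594 CPM with 0, 1 and 2 mutant alleles, adjusted p = 7.3e-05 for HD-homo against control) and the Wnt antagonist Dkk2 (17.5, 4.29 and 0.0643 CPM), which fell in both steps (adjusted p = 4e-07 and 9.7e-09).

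Other secreted or surface proteins were the pattern recognition molecule Ptx3 (pentraxin), the lipoprotein lipase inhibitor Angptl4 and the C1q-like C1qtnf1. Further ones were the ectodysplasin Eda, Cgref1, Glipr1 and the secretory pathway pseudokinase Fam20a. Medag is named beside them, and no location is given here for its protein. Ptx3 was at 8.12, 9.26 and 8.24 CPM in control, 30.7, 28.4 and 47.6 CPM in HD-het and 163, 249.7 and 234 CPM in HD-homo libraries. Medag was at 0.426 CPM in control, 12.6 in HD-het and 108 in HD-homo cells, with the larger log2 step in HD-het cells. Angptl4, at 1.47, 10.8 and 64.2 CPM, had steps of similar size (2.81 and 2.55). Receptors included Unc5c, a netrin receptor of axon guidance, at 0.217, 0.0893 and 0.0678 CPM in control, 1.22, 1.95 and 1.41 CPM in HD-het and 27.6, 28.6 and 42.2 CPM in HD-homo libraries. The sphingosine 1-phosphate receptor S1pr3 went from 4 reads in all in control cells to 3.71 CPM in HD-het and 24.9 CPM in HD-homo cells. Calcrl (calcitonin receptor-like), Procr (endothelial protein C receptor), the synaptic adhesion proteins Flrt1 and Lrrc4c, the platelet receptor Pear1 and the chemokine receptor Ccr1 had HD-homo means between 5.17 CPM (Ccr1) and 62.2 CPM (Pear1).

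Interferon-stimulated genes remained in the set although many symbols had been set aside by name. Isg15, a ubiquitin-like protein that is attached to target proteins, was at 0.496, 0.387 and 0.407 CPM in control, 0.806, 1.07 and 1.03 CPM in HD-het and 10.2, 9.10 and 13.4 CPM in HD-homo libraries. Xaf1, an antagonist of the caspase inhibitor XIAP, was at 0.279, 0.387 and 0.407 CPM in control, 1.08, 1.097 and 1.44 CPM in HD-het and 10.5, 6.65 and 15.9 CPM in HD-homo libraries. Their HD-homo means were 25.4 and 30.8 times the control means, with a small first step (1.01 and 1.52 on the log2 scale) and a larger second one (3.36 and 3.09). Helz2, a helicase, had the reverse order of steps (1.94 and 1.33), at 5.67, 4.37 and 5.52 CPM in control, 21.7, 21.5 and 17.5 CPM in HD-het and 47.6, 49.1 and 56.2 CPM in HD-homo libraries. Samd9l, an interferon-induced antiviral gene that was not on the list, went from 0.390 CPM in control over 3.31 CPM in HD-het to 18.8 CPM in HD-homo cells.

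The promoters of Isg15, Xaf1 and Samd9l hold letters of the interferon-stimulated response element, which is why they are shown here. The stretches come from RefSeq on GRCm38.p6, read 5′ to 3′ on the strand of the gene, and the capitals mark matches to the ISRE core TTTCNNTTT or its reverse complement, which in Isg15 overlap 3 times.
Isg15: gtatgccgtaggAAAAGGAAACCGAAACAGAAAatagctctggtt
Xaf1: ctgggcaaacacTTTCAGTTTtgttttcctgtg
Samd9l: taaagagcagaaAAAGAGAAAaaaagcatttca
They lie at chr4:156200863-156200907 (minus strand), chr11:72301600-72301632 (plus strand) and chr6:3399566-3399598 (minus strand), with the first capital 77, 17 and 15 bases before the annotated start. A window from 250 bases before to 50 after the start was found for 88 of the 110 genes (none for Nlrc5 or H60a), and the core was present on either strand in 12 of them or 13.6%, against 7.42% of 10530 tested genes and 10.7% of all 27025 promoters. Beside those 3 the holders were Birc3, Capn6, Ccr1, Cd80, Eya4, Fgf7, Irx3, Omd and Tgfbi. The windows of Helz2, above, and of Tap1, below, were searched and held 0 matches. On the strand of the gene alone the share was 5.68%, against 4.02% of the tested genes and 5.64% of all 27025 promoters. A match describes the letters of the window and not the binding of a factor.

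In the rest of the interferon-stimulated list more genes were called higher in the second step than in the first. Of 75 listed genes, 5 of which carry a symbol that the rule bars, 62 outside the set were tested. In HD-het cells 23 of them were higher and 9 lower than in control cells, whereas 48 were higher and 7 lower in HD-homo against HD-het cells, and 52 higher and 3 lower in HD-homo against control cells (edgeR, adjusted p under 0.05). The median log2 fold changes of the 3 comparisons were 0.47, 1.39 and 1.82. Without HD-homo replicate 3 the count higher in HD-homo against control cells was 51. Trim30a, a TRIM family protein, had the largest fitted change, with most of its counts in that library, at 0.401, 0.631 and 9.02 CPM in HD-homo libraries, 0.0278, 0 and 0 CPM in HD-het libraries and 0 counts in control cells (adjusted p = 0.0084). Tlr3, a receptor for double-stranded RNA, was the lowest, at 3.25, 3.51 and 3.46 CPM in control, 6.84, 7.31 and 5.81 CPM in HD-het and 1.67, 2.21 and 2.26 CPM in HD-homo libraries (log2 fold change -0.75, SE 0.152, adjusted p = 0.0015 for HD-homo against control). Microglia and macrophage markers summed to 36.4 to 37.8 CPM in control, 98.1 to 106 CPM in HD-het and 46.0 to 54.3 CPM in HD-homo libraries, and their defining genes Aif1, Adgre1 and C1qa were listed at 0 throughout.

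Antigen presentation was represented by Tap1, a subunit of the peptide transporter that loads MHC class I, and Nlrc5, the transactivator of MHC class I genes. Tap1 was at 1.89, 1.01 and 2.24 CPM in control, 3.47, 3.69 and 3.68 CPM in HD-het and 7.84, 9.01 and 23.3 CPM in HD-homo libraries. Nlrc5 was at 0.960, 0.774 and 0.746 CPM in control, 2.06, 1.77 and 2.18 CPM in HD-het and 4.51, 5.97 and 11.5 CPM in HD-homo libraries. Both were highest in HD-homo replicate 3, and without that library the ratio of HD-homo to control for Tap1 was 4.92 in place of 7.82 and that of HD-homo to HD-het 2.33 in place of 3.71. Among 24 other tested genes of MHC class I and antigen processing, 14 were higher and 0 lower in HD-het against control cells, 11 higher and 7 lower in HD-homo against HD-het cells, and 19 higher and 2 lower in HD-homo against control cells. The last count was 1 without control replicate 1 or 3, any HD-het replicate or HD-homo replicate 1 or 3, and also 1 with the replicate block, the DESeq2 test or no filter. Psmb8, an immunoproteasome subunit, led these at 0.0645, 0.157 and 0.976 CPM with 0, 1 and 2 mutant alleles (adjusted p = 0.0016 for HD-homo against control). H2-T23, a nonclassical class I gene, was lowest at 6.86, 22.02 and 1.38 CPM (log2 fold change -2.32, SE 0.114, adjusted p = 1.7e-08). Surface ligands for receptors of immune cells were also in the set. H60a, a stress ligand of the NKG2D receptor on natural killer cells, was at 10.8, 11.5 and 12.7 CPM in control, 28.1, 31.2 and 32.0 CPM in HD-het and 232, 313 and 139 CPM in HD-homo libraries. H60a had no entry in the annotations used here, so that sequence shared or overlapping with other genes could not be looked up. Cd80, a costimulatory ligand for T cells that was listed among p53 targets, was at 1.24, 1.64 and 2.03 CPM in control, 5.00, 4.78 and 2.68 CPM in HD-het and 6.61, 12.2 and 13.5 CPM in HD-homo libraries.

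The necroptosis genes Ripk3 and Mlkl were low in control cells and differed in their steps. Ripk3 was at 0.0929, 0.268 and 0.136 CPM in control, 0.945, 0.914 and 1.18 CPM in HD-het and 54.5, 59.3 and 49.9 CPM in HD-homo libraries, so that its second step (5.62 on the log2 scale) far exceeded the first (2.07). Mlkl was at 0.713, 0.536 and 0.542 CPM in control, 8.03, 9.14 and 12.3 CPM in HD-het and 40, 41.5 and 47.3 CPM in HD-homo libraries, with the first step (3.83) the larger. Ltbr, the lymphotoxin beta receptor, was at 0.0620, 0.0595 and 0 CPM in control, 19.04, 18.8 and 19.8 CPM in HD-het and 97.3, 91.2 and 99.6 CPM in HD-homo libraries, which rests on 4 control reads in all and gives a ratio of HD-homo to control of 2282-fold (95% counting interval 891 to 8377). The inhibitor of apoptosis Birc3 and the TNF-induced Tnfaip2 were 15.0-fold and 44.8-fold above control in HD-homo cells. C1ra and C1rb, near-identical genes for the complement protease C1r, had 50.8% and 60.5% of the 50-base words of their transcripts in common with other genes, so that reads could be split between them. C1ra was at 1.18, 1.19 and 1.19 CPM in control, 3.84, 3.44 and 4.33 CPM in HD-het and 7.93, 7.96 and 10.8 CPM in HD-homo libraries. C1rb had means of 0.744, 2.63 and 5.93 CPM. In the prostaglandin pathway, the prostaglandin E synthase Ptges went from 0.265 CPM in control over 1.23 CPM in HD-het to 62.0 CPM in HD-homo cells, the receptor Ptger1 from 0.759 over 3.19 to 8.14 CPM, and the prostaglandin reductase Ptgr2 from 0.0654 over 4.69 to 20.0 CPM.

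Regulators of embryonic patterning formed a further group, with 6 members of a list of 115. Eya4, a transcriptional coactivator with phosphatase activity, had the smallest first step of the set, at 18.5, 21.5 and 19.8 CPM in control, 36.5, 41.6 and 42.1 CPM in HD-het and 83.4, 129 and 100.5 CPM in HD-homo libraries. Its partner family was represented by the homeobox gene Six2 at 1.77, 1.73 and 1.39 CPM in control, 4.45, 5.12 and 4.803 CPM in HD-het and 15.5, 13.3 and 14.9 CPM in HD-homo libraries. Among Iroquois homeobox genes, Irx3 was at 12.7, 12.4 and 11.5 CPM in control, 41.4, 39.7 and 27.0 CPM in HD-het and 93.7, 97.0 and 111 CPM in HD-homo libraries. Iroquois genes pattern the embryonic nervous system and limb. Irx2 was at 0.0929, 0.0893 and 0.203 CPM in control, 1.31, 1.04 and 1.24 CPM in HD-het and 8.15, 7.16 and 7.92 CPM in HD-homo libraries. Both Irx genes had similar first and second steps, although the third HD-het library of Irx3 lay below its replicates. Zic1, a zinc finger regulator of neural development, was at 0.867, 0.506 and 0.644 CPM in control, 1.36, 1.92 and 1.21 CPM in HD-het and 25.9, 26.4 and 28.1 CPM in HD-homo libraries, with 3.15% of the difference present in HD-het cells. Ebf3 was at 0.0310, 0.0298 and 0.0678 CPM in control, 0.389, 0.670 and 1.00 CPM in HD-het and 7.13, 8.06 and 5.00 CPM in HD-homo libraries. The zinc finger gene Glis1, which was not on the list, had means of 1.16, 3.16 and 33.9 CPM.

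Among the 73 other tested patterning genes the directions were mixed. In HD-het against control cells 28 were higher and 23 lower. In HD-homo against HD-het cells 25 were higher and 35 lower, and in HD-homo against control cells 26 and 35. The shares of all tested genes called higher and lower were 33.8% and 31.4%, 36.0% and 35.6%, and 29.6% and 28.9% in these comparisons. Zic4 had the largest positive change, at 0.0298, 0.135 and 1.78 CPM with 0, 1 and 2 mutant alleles (adjusted p = 3.4e-06 for HD-homo against control). Sall1 was nearly lost from HD-homo cells, at 32.1, 42.6 and 0.0180 CPM (adjusted p = 6.1e-12).

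A group of 15 genes had 3 counts or fewer in every control library, where their level is known only to within counting error. Kcnk5, a background potassium channel, was at 0 counts in all control libraries and at 1.45, 1.40 and 1.15 CPM in the HD-het and 7.87, 8.25 and 9.20 CPM in the HD-homo libraries, at least 42.4-fold and at least 268-fold higher than a floor of 3 counts over the control group. Phyh, a peroxisomal enzyme of phytanic acid breakdown, was also at 0 control counts and stood at 2.31, 2.89 and 2.83 CPM in HD-het and 5.86, 7.26 and 7.71 CPM in HD-homo libraries, at least 84.8-fold and at least 222-fold higher. Mpg, a DNA glycosylase that removes alkylated bases, had 2 control reads in all, and its libraries of each HD line agreed closely (9.92, 10.3 and 9.96 CPM in HD-het and 27.9, 26.7 and 27.8 CPM in HD-homo). BC034090, for which no function is given here, had 2 control reads in all and was at 3.03, 2.96 and 3.04 CPM in HD-het and 27.8, 23.3 and 24.95 CPM in HD-homo libraries. The others were Ltbr, Lama4, Wnt10b, S1pr3, Calcrl, Ebf3 and Ccr1, described above, the RNA-binding protein Rbpms, the G protein regulator Rgs4, the copper-dependent ferroxidase Heph and the phosphatidylcholine transfer protein Pctp. Rgs4 depended on HD-het replicate 3, without which the ratio of its HD-homo to HD-het means was 47.0 in place of 30.5.

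**Figure D5:**
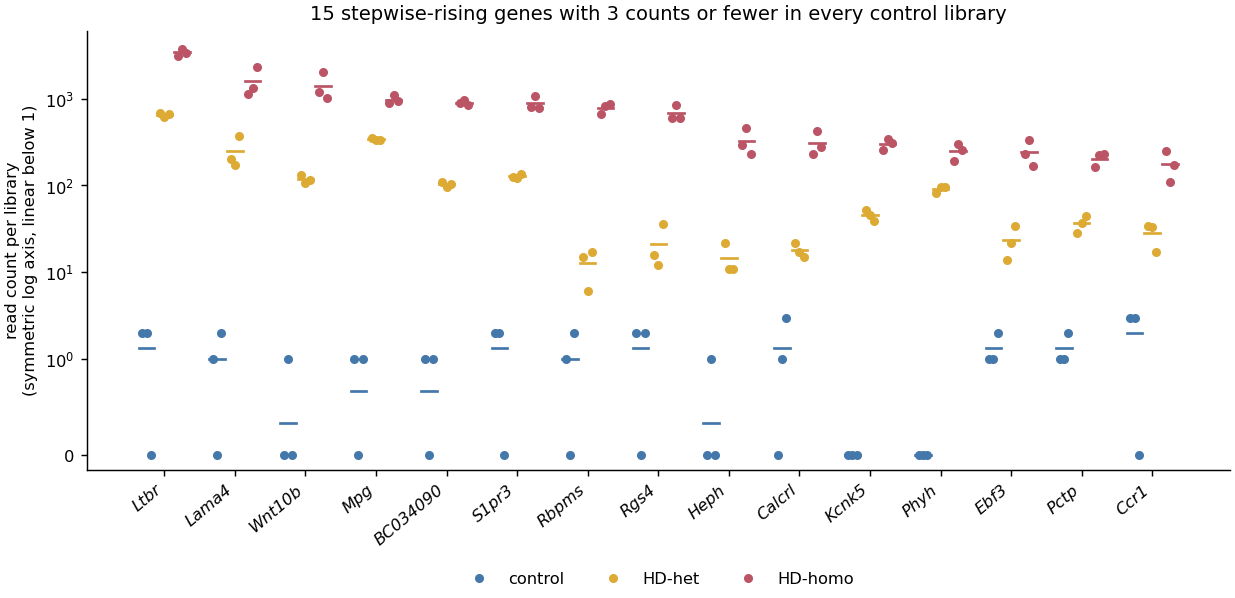
Read counts per library (symmetric log axis, linear below 1) of the 15 genes with 3 counts or fewer in every control library; points are libraries and bars the means of each line. All HD-het points lie above all control points of the same gene, from 6 reads (Rbpms) upward, and Kcnk5 and Phyh have 0 reads in the 3 control libraries.

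Membrane and signaling proteins made up much of the remainder. Cavin2, a coat protein of caveolae, was at 12.3, 11.4 and 12.1 CPM in control, 32.8, 37.5 and 39.3 CPM in HD-het and 514, 577 and 611 CPM in HD-homo libraries, 47.6-fold above control in HD-homo cells. Mme, the peptidase neprilysin, was at 1.39, 1.46 and 0.983 CPM in control, 64.4, 76.8 and 48.0 CPM in HD-het and 198, 319 and 233 CPM in HD-homo libraries, 49.3-fold above control in HD-het and 196-fold in HD-homo cells. Cmtm7, a membrane protein of the chemokine-like factor family, was at 0.186, 0.0595 and 0.0339 CPM in control, 9.81, 9.20 and 12.1 CPM in HD-het and 49.6, 48.2 and 55.4 CPM in HD-homo libraries. Piezo2, a mechanically gated channel, was at 0.496, 0.714 and 0.305 CPM in control, 2.31, 2.77 and 3.21 CPM in HD-het and 4.75, 6.82 and 9.02 CPM in HD-homo libraries. Of 96 listed channel genes 52 others were tested. Of these 24 were higher and 13 lower in HD-het against control cells, 14 higher and 29 lower in HD-homo against HD-het cells and 14 higher and 26 lower in HD-homo against control cells, with median log2 fold changes of 0.69, -0.72 and -0.51. The sodium channel Scn3a was the most increased, with 0.00992 CPM in control, 0.0576 CPM in HD-het and 80.0 CPM in HD-homo cells (adjusted p = 4.7e-10). Mest, a paternally expressed imprinted gene, was at 3.93, 3.30 and 4.37 CPM in control, 14.0, 15.8 and 11.3 CPM in HD-het and 45.6, 55.1 and 36.9 CPM in HD-homo libraries.

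Genes of the cytoskeleton and of small GTPase signaling were the formin Fmn1, Limch1, Capn6, Tanc2 and the GTPase regulators Arhgdib, Arhgap28 and Srgap1. Signaling enzymes were the phosphodiesterase Pde5a and the inositol phosphatase Inpp4b, beside the inactive rhomboid Rhbdf2. All these genes had HD-homo means from 7.01 CPM (Limch1) to 165 CPM (Fmn1). Enzymes and carriers of metabolism were the ganglioside activator Gm2a, the transporters Mfsd10 and Slc35f2, the glycosyltransferase Gcnt4, the phosphoxylose phosphatase Pxylp1, the ecto-nucleotidase Nt5e, the paraoxonase Pon3, the alcohol dehydrogenase Adh7 and the sterol-binding Osbpl10. Mfsd10 was 128-fold above control in HD-homo cells, and the others between 5.17-fold (Gm2a) and 39.9-fold (Adh7). The remaining genes, Fam13c, Syce2, Nynrin, Sdr39u1, Nol4l, Ap1g2, Fignl2 and Efr3b, had HD-homo means from 5.62 CPM (Efr3b) to 22.3 CPM (Fam13c). Without control replicate 3 the ratio of HD-homo to control for Sdr39u1 was 44.2 in place of 28.7 and that of HD-het to control 7.83 in place of 5.09.

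The replicates of these genes also spread. Within a line the coefficient of variation over the 3 libraries had a median of 20.4% in control, 16.4% in HD-het and 17.9% in HD-homo cells, against 4.29%, 5.82% and 7.40% for other tested genes at 5 CPM or more in HD-homo cells. The levels of the set were lower, with a median control mean of 0.632 CPM, and the part of counting error in this spread was not tested. The highest HD-homo library was replicate 3 for 49.1% of the set and 29.5% of the other tested genes, and replicate 1 for 14.5% and 29.1%. Without control and HD-het replicate 3, the libraries that stood apart, the rule was met by 114 genes, 106 of them among the 110.

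The 109 genes found in RefSeq are all protein coding (H60a had no entry) and lie on all autosomes and on X. Chromosome 6 held 9.17% of them and 4.85% of the tested genes, and chromosome 7 held 2.75% and 7.42%. Few were neighbors. Col6a2 (chr10:76595756-76623630) and Col6a1 (chr10:76708792-76726044, GRCm38) had no tested gene between them, as did Aspn (chr13:49544443-49567565) and Omd (chr13:49582462-49592612). Ripk3 (chr14:55784995-55788857), Nynrin (chr14:55854115-55874736) and Sdr39u1 (chr14:55897283-55900342) lay within a stretch of chromosome 14 with other tested genes between them, and C1ra (chr6:124512621-124523440) and C1rb (chr6:124570430-124581044) within chromosome 6. Of the 209 nearest tested genes on either side that were not in the set, 85 (40.7%) were higher and 45 (21.5%) lower in HD-homo against control (adjusted p under 0.05), compared with 29.6% and 28.9% of all tested genes.

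Some of the counts could be shared with an overlapping gene, since it is not given in the sources used here whether the counting used strand. Exons on the opposite strand cover 35.7% of the exon bases of Mpg (by Nprl3), 47.3% of Fstl3 (Prss57), 48.4% of Sdr39u1 (Khnyn) and 23.1% of Mest (Copg2). Nprl3 had means of 22.6, 21.5 and 22.9 CPM with 0, 1 and 2 mutant alleles, while Mpg went from 0.0216 to 27.5 CPM. Copg2 rose from control to HD-homo cells (adjusted p = 4.8e-05, edgeR), at 45.1 against 29.1 CPM, a smaller ratio than that of Mest. Nynrin and Ptgr2 overlap with annotated antisense genes by 56.5% and 32.0%, and Medag shares 46.8% of its 50-base words with the readthrough gene Gm20488.

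Of 8 short motifs searched on both strands of the promoter windows, the AP-1 letters TGANTCA were found in 14 of 88 promoters (15.9%), against 5.08% of 10530 tested genes and 7.92% of all 27025 promoters. AP-1 is the dimer of Fos and Jun proteins that responds to growth factors and stress. The matches in genes described above with their values are shown here, with the motif in capitals and the strand of the gene.
Col6a1: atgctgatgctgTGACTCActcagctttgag
Lif: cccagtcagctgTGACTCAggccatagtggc
Il1rn: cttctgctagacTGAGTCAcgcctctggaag
Xaf1: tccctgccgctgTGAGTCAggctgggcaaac
Cd80: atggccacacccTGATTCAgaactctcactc
In GRCm38.p6 they lie at chr10:76726116-76726146 (minus strand), chr11:4257328-4257358 (plus strand), chr2:24336707-24336737 (plus strand), chr11:72301579-72301609 (plus strand) and chr16:38458879-38458909 (plus strand). The other holders were Adh7, Ap1g2, Capn6, Cgref1, Gcnt4, Lrrc4c, Mfsd10, Pon3 and Procr. The cyclic AMP response element TGACGTCA was in 0 of the 88 windows and in 3.18% of those of the tested genes. The CCAAT box (CCAAT) was in 22 of the 88 windows and 39.3%, the TATA box TATAAA in 7.95% and 7.08%, and the GC box GGGCGG in 64.8% and 64.5%. The STAT element TTCNNNGAA was in 6.82% and 6.74%, and the kappaB element GGANTTTCC in 2.27% and 1.23%. The median GC share of the windows was 60% in the set and 61% over the tested genes. The absence of a match says only that these letters are not in the window.

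Outside the set, the tested genes whose log2(CPM + 0.1) over the 9 libraries was most like the mean of the 110 were Cgas, the DNA sensor set aside by name (Pearson's r = 0.998), Dnah6, an axonemal dynein (0.998), Ifih1, an RNA sensor also set aside by name (0.996), Trim12a (0.994) and the phosphatase Cdc14b (0.994). These values are a description over libraries that form 3 separate lines. Cgas was at 0.0310, 0.0595 and 0.102 CPM in control, 2.64, 2.65 and 2.48 CPM in HD-het and 44.8, 48.3 and 49.2 CPM in HD-homo libraries, apart in all 3 lines. Dnah6 (0.126, 0.671 and 2.69 CPM) and Trim12a (0, 0.165 and 0.562 CPM) stayed below the level of the rule, and Cdc14b (7.26, 14.0 and 34.5 CPM) missed its first step.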

How the data were processed

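RNA-seq of poly(A)-selected RNA was measured in 9 libraries of 3 cell lines. The authors deposited raw read counts per gene, which were used here as deposited. The submitters' processing notes list cutadapt, Bowtie 1.1.2, RSEM 1.3.0, DESeq2 and the builds GRCm38.p5 and mm10, without role or order, and whether counting used strand is not given in the sources used here. Multi-mapping reads and overlapping genes can therefore affect the counts of the genes named as uncertain.

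CPM was the count divided by the column total. Differences over all genes were tested with edgeR 4.0.16 (R 4.3.3; filterByExpr, minimum count 10, TMM, 1 quasi-likelihood fit over the 3 lines, Benjamini-Hochberg adjustment at 0.05), and the procedure was tested on simulated data with known changes. Libraries were grouped by their labels. The 110 genes, the 14 pathway lists and the cell type marker lists were chosen with earlier results of these data known, and no list was tested as a set.

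The genes of the set were named, except that some items are not reported here. The values of each library were given for the 10 with the highest HD-homo level, the 10 with the largest ratio of HD-homo to control, those on a list and families of 3 or more. Ripk3 and Mlkl were added to these after their values were seen. In each list with 2 or more genes of the set, the highest and lowest of the other genes past the threshold were named. Of the 14 lists, 6 are not described further, since cadherins and smooth muscle held 0 genes of the set and 1 each was in p53 targets (Cd80), imprinted genes (Mest), axon guidance (Unc5c) and lysosome, complement and innate receptors (C1ra).

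Same-numbered replicates were checked for pairing by the correlation of their deviations from the line means. Alternatives were other scalings (TMM, DESeq2 1.42.0 size factors), thinning to the smallest total, other thresholds, the DESeq2 test, no filter, a replicate block and each library left out. Promoter windows and positions are from RefSeq tables and exon overlaps from a GENCODE annotation.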

Additional observations from a re-analysis of the deposited data

How the results depend on the processing

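The number of genes that met the rule was 111 with TMM-normalized CPM, 111 with DESeq2 size factors and 112 with all libraries thinned to the smallest total, of which 109 were among the 110. It was 70 with 1 CPM added in place of 0.1, all 70 among the 110. The added value weighs most on low levels and on genes near a threshold. Among the genes lost by it were Isg15, Xaf1, Tap1, Nlrc5, Ripk3, Il1rn, Aspn, Eya4, Irx2, Zic1 and Ebf3. The number of genes was 180 with steps of at least 1.5 times and 57 with steps of at least 3 times. It was 149 with an HD-homo level of 1 CPM and 85 with 10 CPM. Leaving out 1 library at a time gave 107 to 119 genes, and 94 of the 110 met the rule each time. Isg15 was lost with the thinning, without control replicate 2 or 3 and without HD-het replicate 2 or 3. Eya4 was lost without control replicate 1 or 3 or HD-het replicate 2 or 3. Lif was lost without HD-homo replicate 2, Tap1 without control replicate 2 and Zic1 without control or HD-het replicate 2. Leaving out replicate 3 of control and HD-het cells together, an alternative chosen after seeing the data, gave 114. The log2 steps of the 44 genes described in full kept their sign under all 13 settings. Nothing is read from this, since the rule keeps the libraries of adjacent lines apart. Of the 1144 values, 38 moved by more than the spread between replicates, all of them with 1 CPM added.

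By edgeR 8797 of 13508 genes differed for HD-het against control, 9666 for HD-homo against HD-het and 7910 for HD-homo against control. These counts stayed within 1.5 times under every alternative run. Deviations of same-numbered replicates correlated weakly, with r from -0.00919 to 0.122. Most libraries still correlated best with their own number (6, 4 and 5 of 6 in the 3 comparisons). With the replicate block the counts were 9160, 9938 and 8372, higher in each comparison. Whether libraries of the same number were handled together is not stated, and the main fit used no block. Levels under 3 counts per library are limited by depth.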
